A study of Homo sapiens with 12 samples.

Results

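The interferon response genes described here are ISG15, IFIT1, IFIT2, IFIT3, IRF1, IRF7, IRF9, MX1 and OAS1. They were chosen by name, with earlier results of these data known. The counts of all rows that carry each name were added. This gave 9 genes of 36486 gene symbols and unnamed identifiers in the table of 40295 gene identifiers. Their transcripts were measured by RNA-seq in 12 libraries of established human cancer cell lines. TOV-112D, an ovarian cancer line whose p53 is the R175H mutant, was treated for 3 h with the solvent DMSO, with UCI-1001 or with UCI-1014, with 2 libraries each. The other 6 libraries, 3 a group, are labelled Saos-2, an osteosarcoma line, as p53-null cells or as cells with wild-type p53 (p53-WT), both with a 16 h induction in the labels. The p53-WT cells carry p53 behind a lentiviral, doxycycline-inducible promoter. UCI-1001 and UCI-1014 are pyrimidine triones that differ in that UCI-1014 has a methoxy group in place of a nitro group. The results of the study give 10 µM for UCI-1001 in these libraries, and the dose of UCI-1014 is not given in the sources used here. The compounds may therefore not have been compared at the same dose. No source says that the replicates were separate cultures, so the p-values measure the spread between these libraries, which may be technical.

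Interferons are secreted proteins by which cells warn each other of infection. A type I interferon binds its receptor, the JAK kinases phosphorylate STAT proteins, and these join IRF9 in a complex, ISGF3, that binds the interferon-stimulated response element (ISRE) in promoters. Interferon gamma acts through another element, the gamma-activated site (GAS). IRF1 and IRF7 are transcription factors of the interferon regulatory factor family, and IRF1 is itself induced by interferon. ISG15 is a ubiquitin-like protein that is attached to other proteins and also secreted. The IFIT proteins bind foreign RNA or block its translation, MX1 is a GTPase that traps viral nucleoproteins, and OAS1 makes the oligoadenylates that activate RNase L. In tumour cells these genes are also expressed without infection, and some are known targets of p53.

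Some starts of these genes hold letters that match the elements named above. The promoter windows of the genes on which the results turn are shown for that reason. RefSeq windows (GRCh38.p14) of 250 bases before and 50 bases from the start site were found for 7 of the 9 genes, in 10 windows, 2 of them of IFIT3 and 3 of MX1. IFIT2 and IRF7 had no window in that table. The letters searched were GAAANNGAAA for the ISRE core, TTCNNNGAA for the GAS and TATAAA for a TATA box, together with the p53 half-site by its name. Both strands were read, and capitals mark ISRE cores, GAS matches and p53 half-sites.
ISG15, chr1:1013247-1013546, plus strand: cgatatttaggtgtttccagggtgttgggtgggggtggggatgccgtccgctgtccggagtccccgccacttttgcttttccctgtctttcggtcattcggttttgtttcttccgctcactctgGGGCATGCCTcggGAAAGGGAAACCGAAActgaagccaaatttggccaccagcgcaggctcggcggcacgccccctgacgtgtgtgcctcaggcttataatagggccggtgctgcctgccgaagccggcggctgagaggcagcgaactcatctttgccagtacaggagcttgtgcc
IFIT1, chr10:89392373-89392672, plus strand: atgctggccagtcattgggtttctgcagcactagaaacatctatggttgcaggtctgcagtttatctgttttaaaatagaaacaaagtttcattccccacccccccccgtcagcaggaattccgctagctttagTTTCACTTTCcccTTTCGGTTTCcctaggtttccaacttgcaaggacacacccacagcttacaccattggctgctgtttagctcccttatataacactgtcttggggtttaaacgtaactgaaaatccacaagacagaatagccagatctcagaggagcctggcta
IFIT3, upstream start, chr10:89327747-89328046, plus strand: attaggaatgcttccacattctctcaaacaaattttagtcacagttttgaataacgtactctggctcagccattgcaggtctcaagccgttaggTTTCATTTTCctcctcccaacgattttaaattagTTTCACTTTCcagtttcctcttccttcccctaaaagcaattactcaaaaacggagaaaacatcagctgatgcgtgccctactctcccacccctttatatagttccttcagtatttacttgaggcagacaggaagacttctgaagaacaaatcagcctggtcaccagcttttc
IFIT3, downstream start, chr10:89332279-89332578, plus strand: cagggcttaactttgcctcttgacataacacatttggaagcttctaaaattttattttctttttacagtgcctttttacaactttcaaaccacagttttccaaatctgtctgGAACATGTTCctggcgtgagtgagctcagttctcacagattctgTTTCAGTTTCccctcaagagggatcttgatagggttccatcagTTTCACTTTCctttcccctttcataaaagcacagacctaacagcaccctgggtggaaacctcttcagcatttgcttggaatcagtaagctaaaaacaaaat
IRF1, chr5:132490724-132491023, minus strand: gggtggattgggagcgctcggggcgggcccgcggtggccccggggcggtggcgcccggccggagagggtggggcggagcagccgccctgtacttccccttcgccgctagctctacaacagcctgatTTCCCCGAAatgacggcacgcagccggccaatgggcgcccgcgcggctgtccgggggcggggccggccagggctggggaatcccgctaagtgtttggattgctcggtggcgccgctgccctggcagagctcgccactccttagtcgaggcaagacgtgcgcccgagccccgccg
MX1, first start, chr21:41420308-41420607, plus strand: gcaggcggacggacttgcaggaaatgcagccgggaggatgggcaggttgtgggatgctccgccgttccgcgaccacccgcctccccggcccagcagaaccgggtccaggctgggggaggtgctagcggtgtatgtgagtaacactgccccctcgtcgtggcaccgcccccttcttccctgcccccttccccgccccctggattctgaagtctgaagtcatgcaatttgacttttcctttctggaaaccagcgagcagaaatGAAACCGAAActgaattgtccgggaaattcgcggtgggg

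With the start base as 0, the ISG15 window held ISRE cores at -113 to -104 and -107 to -98, which overlap each other, and a p53 half-site, GGGCATGCCT, at -126 to -117. IFIT1 held ISRE cores at -116 to -107 and -103 to -94, on the minus strand. Both IFIT3 windows held 2 ISRE cores each, and the downstream one alone held a p53 half-site, GAACATGTTC, at -138 to -129. IRF1 held a GAS at -124 to -116 and no ISRE core. The first MX1 start held an ISRE core at 11 to 20, inside the transcript. Of the windows not printed, IRF9 held a GAS at -63 to -55, OAS1 a GAS at -168 to -160, the third MX1 window an ISRE core and a GAS that overlap, and the second MX1 window none of the 4 motifs.

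The ISRE core stood in 6 of the 10 windows, and in 3.57% of the 35116 promoters of the same length in the table. The GAS stood in 4 of the 10 windows and in 7.66% of all promoters. The p53 half-site stood in 2 windows and in 6.63% of all promoters, and the TATA letters in 1 window, upstream IFIT3, and in 11.5% of all. A match is a description of these letters and not a binding site.

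**Figure D1:**
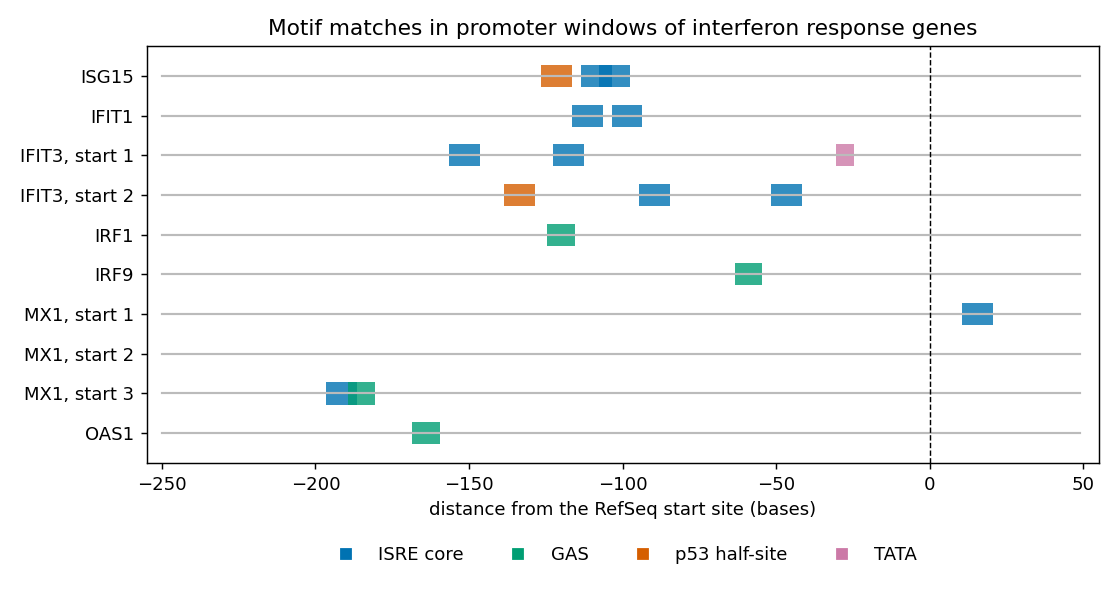
Motif matches in the 10 RefSeq promoter windows of 7 interferon response genes, by distance in bases from the start site (dashed line); each grey line is a window and each box a match. The p53 half-sites of ISG15 and of the downstream IFIT3 start (start 2) lie upstream of their ISRE cores.

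The libraries held 17762027 to 20717898 counts in TOV-112D and 19593655 to 24629558 in Saos-2. Of these counts, the 9 genes took 0.00417% to 0.00553% in TOV-112D, 0.00781% to 0.00839% in p53-null cells and 0.0379% to 0.0505% in p53-WT cells. Levels of one gene are given as CPM, counts scaled to the same total in each library of a line. CDKN1A, the classic p53 target, rose from 64.7 to 8336 CPM with p53-WT. In both Saos-2 groups replicate 1 stood apart, since its counts differed from those of its fellows by 24.6 to 41.3 chi-square units per degree of freedom, against 3.19 to 3.95 between replicates 2 and 3. Osteoblast markers were scarce in the libraries labelled Saos-2: SP7 was at 0 counts, only RUNX2, and COL1A1 in p53-null cells, reached 1 CPM, and the 6 markers summed to 5.03 to 15.005 CPM, while KRT8, KRT18, KRT7, PAX8 and WT1 of the epithelial and ovarian list reached 1 CPM and that list of 7 summed to 779.4 to 1002 CPM. The data therefore go against the osteoblast markers of that label. In TOV-112D the epithelial and ovarian list summed to 4.23 to 6.54 CPM, with KRT18 at 0 and EPCAM, WT1 and CDH1 over 1 CPM, and the osteoblast list summed to 55.02 to 62.5 CPM, with RUNX2, ALPL and COL1A1 over 1 CPM. The sum of each list was thus higher in the line whose label it does not match, but not every marker was. KRT18 alone stood at 401.6 to 558.5 CPM in Saos-2, and COL1A1 alone at 47.7 to 53.04 CPM in TOV-112D. In Saos-2 EPCAM did not exceed 0.0996 CPM and CDH1 0.263 CPM, against at least 1.80 and 0.819 CPM in TOV-112D. RUNX2 overlapped between p53-null cells (8.48 to 12.1 CPM) and DMSO-treated TOV-112D (7.89 and 9.20 CPM). Of 8 leukocyte markers, CD3E and HLA-DRA were at 0 in every group and 2 a group reached 1 CPM. These were PTPRC and CD68 in TOV-112D, and CD68 and ITGAM in Saos-2. CD68 stood at 35.5 to 61.6 CPM in TOV-112D and at 89.5 to 110.7 CPM in Saos-2. ITGAM stood at 4.64 to 5.66 CPM in p53-null and at 20.7 to 23.6 CPM in p53-WT cells.

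Levels can be compared between genes only per length, as TPM, a length-corrected share of all transcripts. ISG15 was the highest of the 9 in every group, at 93.3 and 104.2 TPM with DMSO, 105.4 to 118.5 TPM in p53-null cells and 817.8 to 978.3 TPM in p53-WT cells. In DMSO-treated TOV-112D the order below ISG15 was IRF9 (12.5 and 14.1 TPM), IRF1 (4.55 and 4.998), MX1 (4.31 and 5.10), IFIT1 (2.24 and 2.80), OAS1 (0.933 and 1.19), IFIT2 (0.567 and 0.582), IFIT3 (0.492 and 0.641) and IRF7 (0.154 and 0.451). The ranges of IRF1 and MX1, and those of IFIT2 and IFIT3, overlapped, so these neighbours did not differ beyond their spread. Of the MX1 mean of 4.71 TPM with DMSO, a transcript with a retained intron held 3.04 TPM and another such transcript 1.26 TPM. By group mean, the more abundant of these held most of the MX1 TPM in every group. The rank of MX1 therefore does not give the rank of its coding transcripts.

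The order differed in the p53-null cells, where IRF1 came second at 9.37 to 13.6 TPM and IRF7 next at 8.90 to 11.1 TPM, with overlapping ranges. The length used for IRF7 came from transcripts that held 11.4% of its counts, so its TPM and its rank are uncertain in every group. IRF9 (4.87 to 5.22 TPM), IFIT3 (4.07 to 6.03), MX1 (2.39 to 5.27) and IFIT1 (3.20 to 4.11) followed, and each of these overlapped its neighbour. IFIT2 was lower, at 1.02 to 1.30 TPM, and OAS1 did not exceed 0.0562 TPM. In p53-WT cells IFIT3 stood next, at 14.7 to 19.1 TPM, behind IRF1 at 34.5 to 36.7 TPM. IRF7 stood at 8.81 to 10.4, IFIT1 at 7.79 to 8.70, IRF9 at 4.26 to 5.62, IFIT2 at 2.06 to 2.53, MX1 at 1.60 to 2.82 and OAS1 at 0.221 to 0.379 TPM, and of these neighbours only IFIT2 and MX1 overlapped. The cell lines differ in origin and were not tested against each other.

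**Figure D2:**
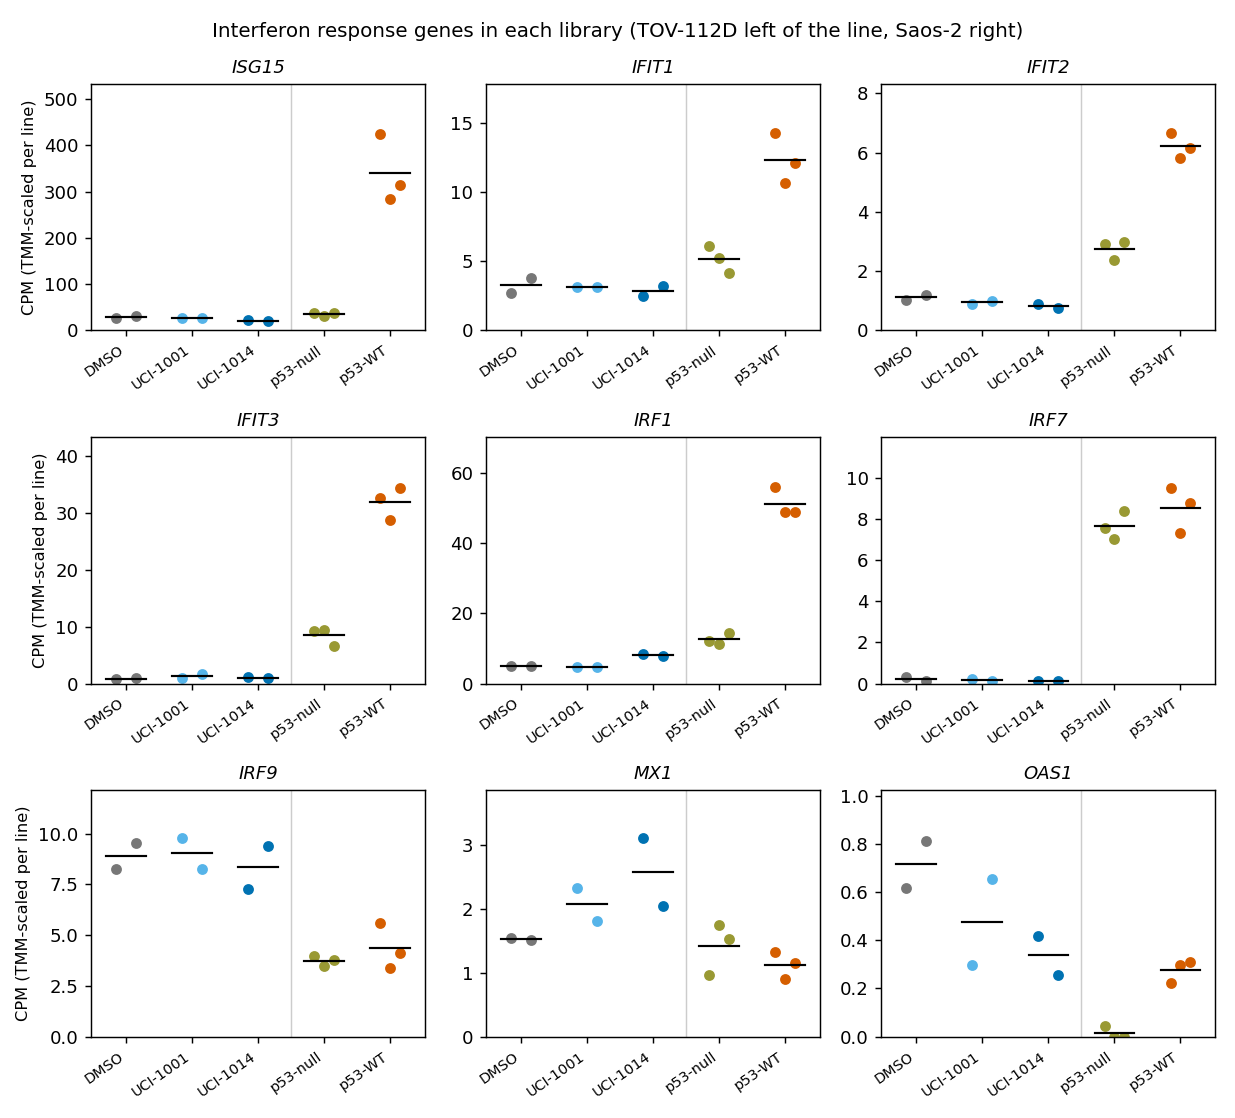
CPM of each gene in each library (points, ordered by replicate number) with the group mean (bar), TMM-scaled within each cell line. With p53-WT, all 3 libraries lie above all 3 p53-null libraries for ISG15, IFIT1, IFIT2, IFIT3, IRF1 and OAS1, but not for IRF7, IRF9 and MX1.

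Wild-type p53 against p53-null. The comparison asks which of these genes differ in level between cells with induced wild-type p53 and p53-null cells. The study names the p53-null cells as the parental line, and no uninduced p53-WT library was measured. Effects of the lentiviral construct therefore cannot be told apart from those of p53. 5 of the 8 genes tested rose and 0 fell: ISG15, IRF1, IFIT3, IFIT1 and IFIT2. In the same comparison 33.5% of the 14275 genes tested rose and 33.0% fell, with calls made at an adjusted p under 0.05 (edgeR's quasi-likelihood test, Benjamini-Hochberg over all genes), so a call in itself was common. The median log2 fold change was 1.22 over the 8 genes and -0.01 over all genes tested. The members were chosen with earlier results of these data known, so this difference is a description only. With both replicates 1 left out, 5 rose and 0 fell as well. With scaling by total counts in place of TMM, the median of all genes moved to -0.16 and rises were 41.8% of all calls against 50.4%, while the members' count of calls was again 5.

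ISG15, the ubiquitin-like modifier, stood at 38.1, 31.9 and 37.4 CPM in the p53-null libraries and at 424.3, 284.3 and 313.7 CPM in the p53-WT libraries. The lowest p53-WT library thus lay far above the highest p53-null one. The log2 fold change was 3.25 (SE 0.16, adjusted p = 2.2e-08, edgeR), a 9.51-fold rise, the largest of the 8. Without both replicates 1 it was 3.11.

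Among the transcription factors, IRF1 rose and IRF7 and IRF9 did not pass the test. IRF1 stood at 12.3, 11.2 and 14.3 CPM in p53-null and at 56.04, 48.8 and 48.9 CPM in p53-WT cells, with no overlap and a log2 fold change of 2.02 (SE 0.13, edgeR adjusted p = 1.2e-07), or 1.94 without both replicates 1. IRF7, which drives interferon gene transcription after infection, stood at 7.56, 7.01 and 8.37 CPM and then at 9.52, 7.32 and 8.77 CPM. These values overlapped, with a log2 fold change of 0.16 (95% interval -0.17 to 0.48). IRF9, the DNA-binding part of ISGF3, stood at 3.96, 3.51 and 3.77 CPM and then at 5.58, 3.39 and 4.14 CPM, again overlapping, with a log2 fold change of 0.23 (95% interval -0.22 to 0.67). IRF9 has 2 identifiers with identical counts in every library: if reads were counted under both, its level is lower than given here, and the fold is not touched. IRF7 also has 2 identifiers, of which one is not on the primary chromosomes of GENCODE 44 and holds most counts in the Saos-2 libraries, but 75 of 147 in p53-WT replicate 2. Counts split between such copies are uncertain.

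The 3 IFIT genes, neighbours on chromosome 10 that encode RNA-binding proteins, rose together. IFIT3 stood at 9.21, 9.48 and 6.66 CPM in p53-null and at 32.6, 28.8 and 34.5 CPM in p53-WT cells, a log2 fold change of 1.92 (SE 0.15, edgeR adjusted p = 7.3e-07). IFIT1 stood at 6.08, 5.21 and 4.17 CPM and then at 14.3, 10.7 and 12.1 CPM, a log2 fold change of 1.26 (SE 0.17, edgeR adjusted p = 6.5e-05). For both, every p53-WT library lay above every p53-null library. IFIT2 stood at 2.90, 2.37 and 2.98 CPM and then at 6.64, 5.82 and 6.17 CPM, also without overlap, with a log2 fold change of 1.17 (SE 0.16, edgeR adjusted p = 7.6e-05). Without both replicates 1 the log2 fold changes were 1.99 for IFIT3, 1.29 for IFIT1 and 1.17 for IFIT2. The 3 genes lie within LIPA, a lipase gene on the other strand, and the sources used here do not give whether the counting used strand.

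MX1 did not pass the test. It stood at 0.967, 1.75 and 1.53 CPM in p53-null and at 1.33, 0.896 and 1.15 CPM in p53-WT cells, and the groups overlapped, with a log2 fold change of -0.33 (95% interval -0.98 to 0.32). A transcript with a retained intron, MX1-211, held 67.6% of the MX1 counts in p53-null and 53.3% in p53-WT cells, so the gene count is not mainly of coding transcripts.

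OAS1 was below the filter on low counts and was not in the fit. It had 1, 0 and 0 counts in the p53-null libraries and 5, 6 and 7 in the p53-WT libraries. The ratio of the scaled counts was 18.1, with an exact 95% interval of 2.85 to 752.9 that covers counting error only. With the filter dropped the edgeR test gave an adjusted p of 0.0053, so that 6 of 9 rose there.

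**Figure D3:**
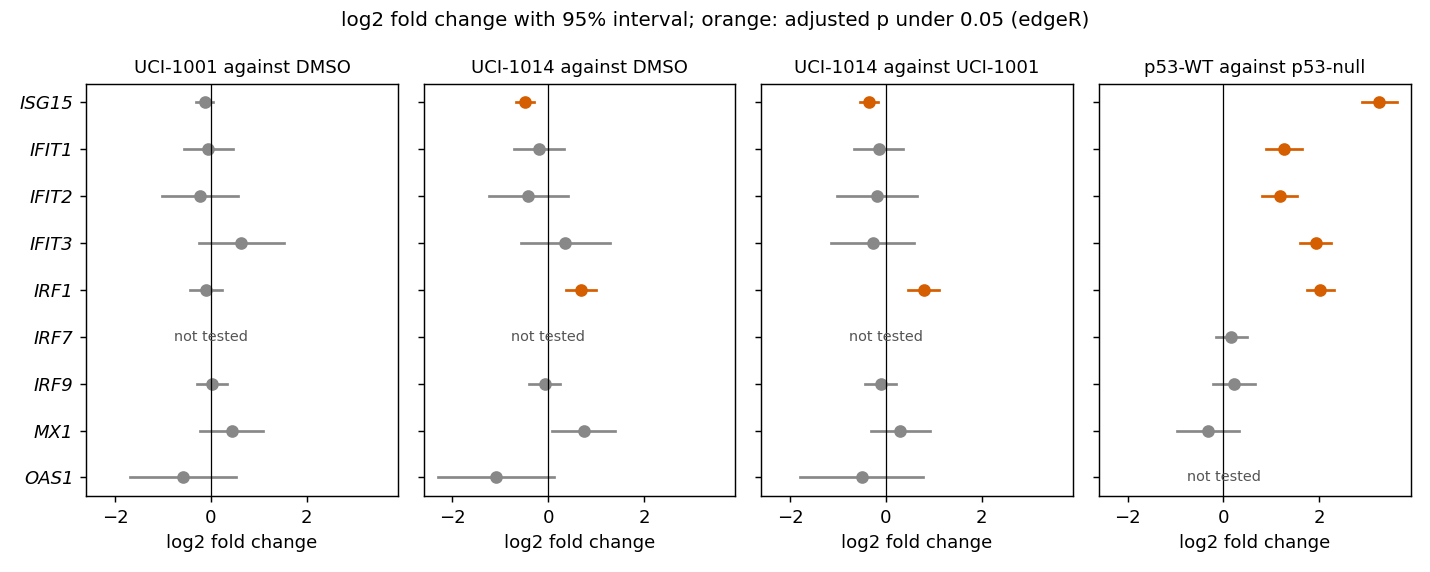
log2 fold change of each gene in the 4 comparisons (points) with its 95% interval (lines), orange where the adjusted p was under 0.05. With p53-WT, ISG15, IFIT1, IFIT2, IFIT3 and IRF1 lie to the right of 0; with UCI-1014 only ISG15 and IRF1 are orange, on opposite sides, and with UCI-1001 none is.

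The deposited transcript abundances showed which IFIT3 transcript differed. IFIT3-202 begins at the upstream start and IFIT3-201 at chr10:89332484, in the downstream window printed above. IFIT3-202 stood at 4.62, 6.03 and 3.88 TPM in p53-null and at 4.75, 4.38 and 5.28 TPM in p53-WT cells, so the groups overlapped. IFIT3-201 stood at 0.425, 0 and 0.190 TPM in p53-null and at 9.94, 11.7 and 13.8 TPM in p53-WT cells, with every p53-WT library above every p53-null library. Its share of the IFIT3 estimated counts was 4.28% in p53-null and 70.4% in p53-WT cells. All 6 TOV-112D libraries held IFIT3-202 only, at 0.492 to 1.12 TPM. The downstream window is the IFIT3 window with the p53 half-site, a match found in 6.63% of all promoters. The printed IFIT1 and IRF1 windows held none, although both genes rose. A link between the half-site and the level of IFIT3-201 was not tested. The IFIT3 transcript values are kallisto estimates that share reads between the 2 transcripts, and they were not tested.

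**Figure D4:**
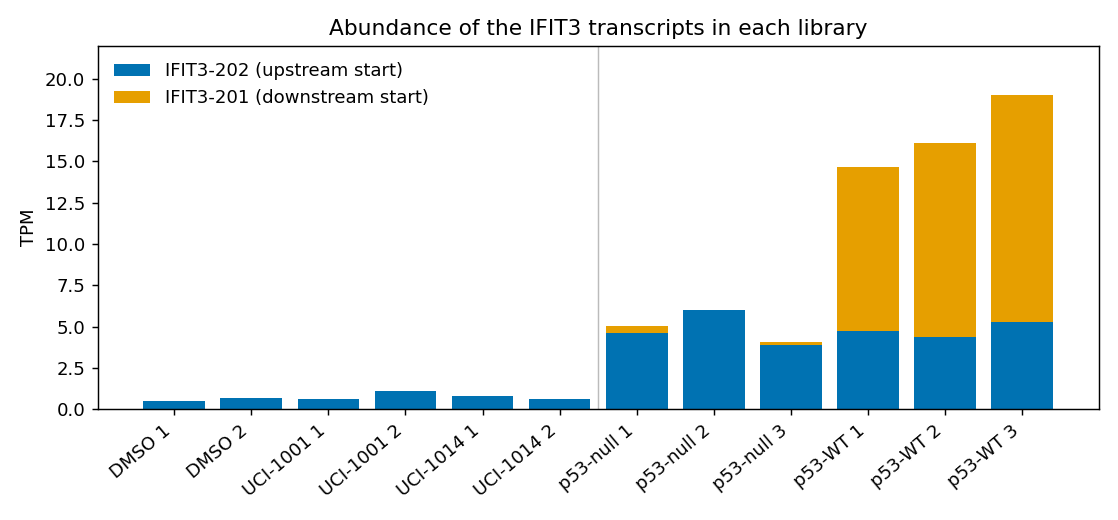
Stacked bars give the TPM of the 2 IFIT3 transcripts in each of the 12 libraries. IFIT3-202 (blue) is alike in both Saos-2 groups, at 3.88 to 6.03 TPM in p53-null and 4.38 to 5.28 TPM in p53-WT cells, while IFIT3-201 (orange) goes from at most 0.425 TPM to at least 9.94 TPM.

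The other genes gave less clear splits. IFIT1-201 and IFIT1-202 both start inside the printed IFIT1 window, at chr10:89392623 and chr10:89392546. IFIT1-201 went from 3.04 to 3.85 TPM in p53-null to 7.66 to 8.51 TPM in p53-WT cells. IFIT1-202 was at 0.165 to 0.347 TPM and then at 0.134 to 0.191 TPM. For IRF1, IRF1-202 was the most abundant transcript by TPM. Its mean was 6.58 ± 0.875 TPM in p53-null and 25.0 ± 0.467 TPM in p53-WT cells (SD, n = 3). It begins at chr5:132490262, outside the printed IRF1 window. IRF1-201 and IRF1-203, which begin inside that window, also lay higher in every p53-WT library than in any p53-null library. The 3 IFIT2 transcripts overlapped between the groups one by one, though their summed count did not.

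Genes that make, sense and transmit interferon were described from 8 lists of 120 genes. No interferon gene of the 21 listed passed the filter on low counts: IFNB1 was at 0 counts in all 12 libraries, and IFNE had 2 to 9 counts in p53-null and 3 to 11 in p53-WT libraries. Of the 82 genes of the other lists that were tested with p53-WT, 30 rose and 18 fell, beside the 33.5% and 33.0% of all genes. Their median log2 fold change was 0.12. With total-count scaling 22 rose and 26 fell, and without both replicates 1, 37 rose and 21 fell. The counts of single lists given next stand beside the same 33.5% and 33.0% of all genes.

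Of 12 nucleic acid sensors and adaptors tested, 5 rose and 0 fell with p53-WT. TLR3, the endosomal sensor of double-stranded RNA, rose from 1.82 to 11.5 CPM (log2 fold change 2.65, SE 0.21). IFI16, a DNA sensor, rose from 1.03 to 4.72 CPM (2.20, SE 0.26). STING1, the adaptor of cytosolic DNA sensing, rose from 5.44 to 24.3 CPM (2.16, SE 0.14). With total-count scaling 2 of the 12 fell.

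Of 11 receptor and JAK-STAT genes, 3 rose and 4 fell. IL10RB, a chain of the lambda interferon receptor, rose from 20.9 to 34.9 CPM (log2 fold change 0.74, SE 0.11). The other chain of that receptor, IFNLR1, fell from 4.44 to 1.37 CPM (-1.69, SE 0.21). JAK2, the kinase of the interferon gamma receptor, fell by 1.08 and IFNAR2, a type I interferon receptor chain, fell by 0.91 on the log2 scale. JAK1 rose by 0.38, a call that was lost with total-count scaling.

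Of 3 other interferon regulatory factors tested, 2 rose and 1 fell. IRF5 rose from 0.489 to 6.37 CPM (log2 fold change 3.69, SE 0.23). IRF3, which is activated by phosphorylation after sensing, fell from 55.02 to 30.3 CPM (-0.86, SE 0.13). IRF2, a competitor of IRF1, rose by 0.42 on the log2 scale and was not called with total-count scaling.

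The enzymes that attach ISG15 and the one that removes it were tested for 3 of 4 genes, and 2 rose. UBE2L6, which conjugates ISG15, rose from 9.15 to 16.5 CPM (log2 fold change 0.85, SE 0.16). USP18, which removes ISG15 and restrains the type I receptor, rose from 13.1 to 18.4 CPM (0.49, SE 0.12). Both rises were small beside that of ISG15, at 3.25 on the log2 scale, a difference that was not tested.

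Of 29 other interferon-stimulated genes tested, 9 rose and 7 fell. TRIM22, an antiviral ubiquitin ligase, rose from 0.351 to 6.47 CPM (log2 fold change 4.18, SE 0.23), PML, the scaffold of PML nuclear bodies, from 18.8 to 112.8 CPM (2.59, SE 0.12) and SP110, another nuclear body protein, from 16.8 to 34.6 CPM (1.05, SE 0.11). PLSCR1 fell from 35.9 to 11.5 CPM (-1.64, SE 0.14), SAMD9 from 31.8 to 13.2 CPM (-1.27, SE 0.18) and IFIT5, another IFIT family member, from 24.4 to 14.2 CPM (-0.78, SE 0.13). The IFIT family therefore did not move as one, with IFIT1, IFIT2 and IFIT3 higher and IFIT5 lower under TMM and under total-count scaling.

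Of 18 genes of MHC class I presentation and guanylate binding proteins tested, 7 rose and 3 fell. TAP1, a subunit of the peptide transporter, rose from 34.3 to 250.7 CPM (log2 fold change 2.87, SE 0.12), and PSMB8 and PSMB10, immunoproteasome subunits, rose by 1.21 and 0.72 on the log2 scale. TAP2, the partner of TAP1, fell from 77.0 to 52.5 CPM (-0.55, SE 0.10).

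Of 6 negative regulators, 2 rose and 3 fell. PTPN6, a phosphatase of JAK signalling, had 2, 2 and 1 counts in the p53-null libraries and 68, 59 and 65 in the p53-WT libraries. SOCS3, a feedback inhibitor of JAK kinases, fell from 37.1 to 21.6 CPM (log2 fold change -0.78, SE 0.10). PIAS1 and PTPN2 fell by 0.36 and 0.27 on the log2 scale.

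**Figure D5:**
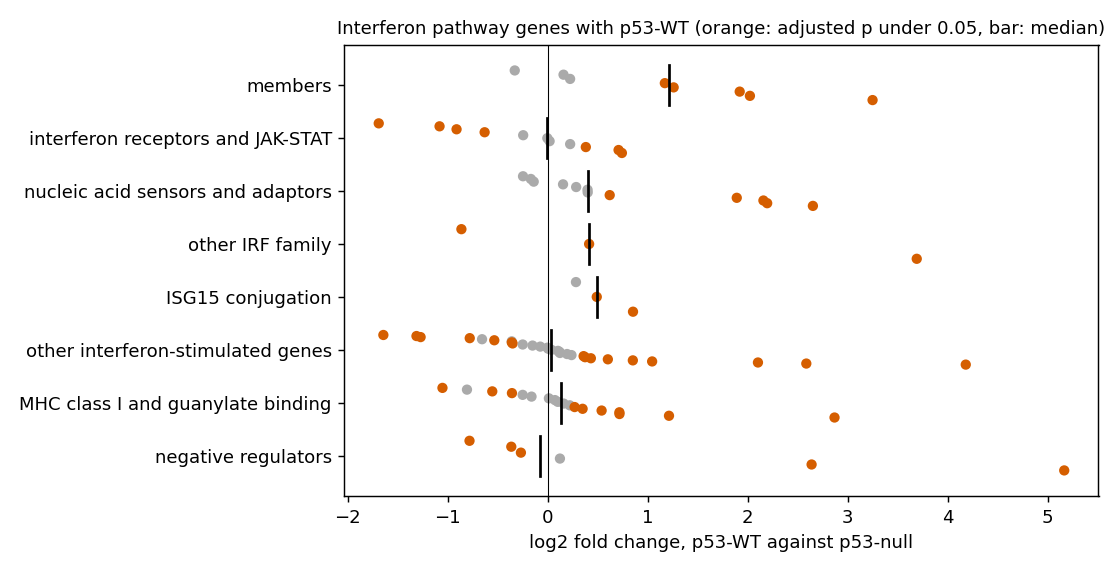
log2 fold change of p53-WT against p53-null for each tested gene (points) of the 9 interferon response genes (members) and of 7 lists of related genes, orange where the adjusted p was under 0.05, with the median of each list (bar). The median is 1.22 for the members and 0.12 for the related genes together. Members and lists were chosen with earlier results of these data known.

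UCI-1001 in TOV-112D. The comparison asks whether 3 h of UCI-1001 changed these genes in cells with mutant p53. None of the 8 genes tested passed an adjusted p under 0.05 by edgeR, 0 did at an unadjusted p under 0.05, and DESeq2 called 0 of the 5 it gave an adjusted p. Of all 14177 genes tested, 9.39% rose and 6.36% fell. The cells did respond to the compound: HSPA1A, a heat shock chaperone, rose by 4.97 and CDKN1A by 1.65 on the log2 scale.

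ISG15 stood at 26.8 and 30.8 CPM with DMSO and at 26.3 and 26.5 CPM with UCI-1001, and the log2 fold change was -0.13 (95% interval -0.30 to 0.05). IRF1 stood at 5.10 and 4.93 CPM with DMSO and at 4.61 and 4.73 CPM with UCI-1001, with -0.10 (95% interval -0.44 to 0.23). Both genes were thus slightly lower in each treated library, within the error of the fit. IRF9 (0.02, interval -0.29 to 0.34) and IFIT1 (-0.05, interval -0.56 to 0.46) overlapped between the groups.

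For the genes with few counts the intervals were wide. IFIT3 had 14 and 17 counts with DMSO and 18 and 33 with UCI-1001, for a log2 fold change of 0.63 (interval -0.26 to 1.52, edgeR adjusted p = 0.355). IFIT2 had 20 and 22 counts and then 18 and 20 (-0.23, interval -1.02 to 0.57). MX1 had 30 and 28 counts and then 47 and 36 (0.43, interval -0.23 to 1.10). OAS1 had 12 and 15 counts and then 6 and 13 (-0.58, interval -1.68 to 0.52). IRF7 had 6 and 2 counts and then 4 and 2 and was below the filter. At this depth changes of the size of the intervals could not be told from 0 for these genes.

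Beside the 9.39% of all genes that rose and the 6.36% that fell, 3 of the 79 related genes tested with UCI-1001 rose and 4 fell. Most of these calls rested on the fit: 0 rose and 1 fell by DESeq2, 0 of 90 were called in one fit of all 12 libraries, 1 rose and 0 fell without DMSO replicate 1, 0 rose and 1 fell without DMSO replicate 2, and 1 rose and 2 fell without UCI-1001 replicate 2. STAT2, a subunit of ISGF3, rose from 21.0 to 26.3 CPM (log2 fold change 0.32, SE 0.089), TBK1, the kinase that activates IRF3, from 48.3 to 56.4 CPM (0.22, SE 0.059) and TRIM21, an antibody receptor in the cytosol, from 7.19 to 9.93 CPM (0.47, SE 0.12). IFNAR2, IFNGR2, TRAF3 and TAPBP fell by 0.28, 0.17, 0.15 and 0.24 on the log2 scale.

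UCI-1014 in TOV-112D. With UCI-1014 1 of the 8 genes tested rose, IRF1, and 1 fell, ISG15. Over all genes tested 23.7% rose and 23.4% fell. With total-count scaling rises were 30.1% of all calls against 50.4%, the median of all genes moved from -0.02 to -0.15 on the log2 scale, and IRF1 and ISG15 were called in the same directions. HSPA1A rose by 6.81 and CDKN1A by 3.54 on the log2 scale.

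ISG15 stood at 26.8 and 30.8 CPM with DMSO and at 21.4 and 19.7 CPM with UCI-1014, so both treated libraries lay below both controls. The log2 fold change was -0.49 (SE 0.087, edgeR adjusted p = 3.2e-04). IRF1 stood at 5.10 and 4.93 CPM with DMSO and at 8.42 and 7.73 CPM with UCI-1014, with both treated libraries above. The log2 fold change was 0.68 (SE 0.15, edgeR adjusted p = 0.00156), a 1.61-fold rise.

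The other genes did not pass the test. MX1 had 30 and 28 counts with DMSO and 52 and 40 with UCI-1014, a log2 fold change of 0.74 (SE 0.31, edgeR adjusted p = 0.0617, range 0.030 to 0.411 over its alternatives). It was called with no filter on low counts and without UCI-1014 replicate 2, where the log2 fold change was 0.72 and 1.03. OAS1 had 12 and 15 counts and then 7 and 5, a log2 fold change of -1.09 (interval -2.29 to 0.11). IFIT1 (-0.20, interval -0.72 to 0.32), IFIT2 (-0.42, interval -1.24 to 0.40), IFIT3 (0.36, interval -0.57 to 1.28) and IRF9 (-0.08, interval -0.40 to 0.25) had intervals that held 0, and IRF7 had 2 counts in each treated library.

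Against UCI-1001, with the limit on dose given above, UCI-1014 again had 1 gene higher, IRF1, and 1 lower, ISG15, of the 8 tested, beside 17.1% and 13.9% of all genes. The log2 difference was 0.79 (SE 0.15, edgeR adjusted p = 0.00103) for IRF1 and -0.36 (SE 0.087, edgeR adjusted p = 0.00575) for ISG15, and in both genes all 4 libraries were apart by compound. The ISG15 call was lost without UCI-1014 replicate 2, at -0.29 (edgeR adjusted p = 0.0617), and in one fit of all 12 libraries, at -0.39 (edgeR adjusted p = 0.218). With total-count scaling the rises were 25.5% of all calls against 55.2%. For the other 6 genes the interval of the difference held 0, from -0.43 to 0.22 for IRF9, the narrowest, to -1.78 to 0.77 for OAS1, the widest. The comparisons of both compounds with DMSO share the DMSO libraries.

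Of the 79 related genes tested with UCI-1014, 18 rose and 7 fell with TMM scaling, beside 23.7% and 23.4% of all genes. With total-count scaling 10 rose and 22 fell, so the direction of small changes rests on the scaling, while the genes named next were called in the same direction in both unless stated. TBK1 rose from 48.3 to 83.8 CPM (log2 fold change 0.80, SE 0.058) and STAT2 from 21.0 to 33.3 CPM (0.66, SE 0.088). TRIM5, a restriction factor of retroviral capsids, rose from 17.9 to 34.2 CPM (0.94, SE 0.079), and TICAM1, the adaptor of TLR3, by 0.46. XAF1, SOCS1 and GBP1 rose from about 1 CPM, by 1.06 (SE 0.32), 1.28 (SE 0.39) and 0.92 (SE 0.31). HERC5, the ligase that attaches ISG15, rose from 16.2 to 22.6 CPM (0.48, SE 0.11).

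IRF2 fell from 14.9 to 8.34 CPM with UCI-1014 (log2 fold change -0.84, SE 0.11), PSMB10 from 10.7 to 6.46 CPM (-0.74, SE 0.13) and TAPBP, which loads peptides on MHC class I, from 84.6 to 61.7 CPM (-0.46, SE 0.055). IFNAR2 fell by 0.43, IFNGR2 by 0.23, and OAS3 and MAVS, the mitochondrial adaptor of RNA sensing, each by 0.32 on the log2 scale. IRF4 and IRF8, named here after their values were seen, rose at under 1 CPM, from 0.157 to 0.601 and from 0.133 to 0.853 CPM. DESeq2 called no rise in their list, and 1 rise was left there without DMSO replicate 1, without DMSO replicate 2, without UCI-1014 replicate 2 and in the fit of all 12 libraries. The rises of IFNGR1, IFNAR1, IFI16, TRIM21 and ADAR, of 0.17 to 0.39 on the log2 scale, were not called with total-count scaling. Against UCI-1001, 11 of the 79 rose and 6 fell with UCI-1014, beside 17.1% and 13.9% of all genes. With total-count scaling, however, 6 of the 79 rose and 19 fell. DESeq2 called 5 up and 3 down, and the fit of all 12 libraries 4 up and 1 down. In the TMM fit of TOV-112D alone, TBK1 was 0.57 higher, TRIM5 0.69 higher and IRF2 lower, at -0.73, on the log2 scale.

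The genes whose pattern over the 12 libraries came closest were found for the 7 members that passed the filter in both lines, which leaves out IRF7 and OAS1. They were ranked by the root mean square difference of log2 CPM, centred within each cell line, among genes of at least 1 CPM in both lines. ISG15 was closest to HRAS, GLIPR2 and FAM102A, at 0.12 to 0.15. IFIT1 was closest to ANG, MRPS6 and SDHAF4, IFIT2 to KCNIP3, TMEM237 and TPCN2, and IFIT3 to STARD5, AGMO and PALM2-AKAP2, at 0.15 to 0.21. IRF1 was closest to EPHA2, DBNDD1 and ZNF195 and IRF9 to LMAN2, YIF1A and ABHD16A, while MX1 was closest to ENSG00000276805, ITPRIP and PLSCR4. Among these 7 members IFIT1 and IFIT2 were the closest, at 0.22.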

How the data were processed

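Total RNA of 12 libraries was sequenced. Per the labels, the authors quantified reads with kallisto 0.48.0 against GRCh38 and used DESeq2 1.38.3. They deposited a table of integer counts per gene, not normalized, and a file per library with kallisto's estimated counts and TPM of each transcript, with their lengths. The comparisons rest on the deposited counts, summed by symbol. The annotation behind these files is not given in the sources used here, and coordinates are from GENCODE 44 and RefSeq on GRCh38.

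Groups were taken from the labels. Each cell line was fitted alone with edgeR 4.0.16 (R 4.3.3): TMM scaling, filterByExpr and the quasi-likelihood test, with p-values adjusted by Benjamini-Hochberg over all genes tested, and calls at an adjusted p under 0.05. SE is the absolute log2 fold change divided by the square root of F. CPM are TMM-scaled within a line. The deposited TPM are used only for levels between genes and for transcripts, and enter no test. For ISG15, IRF7, IRF9 and OAS1, TPM were recomputed from the summed counts and the deposited effective lengths. The scripts were tested on simulated data. The members and lists were chosen with earlier results of these data known, so no count adjusted over a list is given. From each list, up to 3 rises and 3 falls were named among called genes of at least 1 CPM whose groups did not overlap. Some genes that met this rule are not reported here. Alternatives were DESeq2 1.42.0, total-count scaling, no filter, identifiers not summed, an adjusted p under 0.001, all 12 libraries in one fit, a replicate block and leaving out each replicate. Intervals from counts cover counting error only, and a count of 0 allows up to 3 counts, 0.122 to 0.169 CPM a library.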

Additional observations from a re-analysis of the deposited data

How the results depend on the processing

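With p53-WT the count of genes called stayed between 5 and 6 of those tested under every alternative run, and 5 without each replicate. With UCI-1001 it stayed at 0. With UCI-1014 against DMSO it was 2 to 3 without single replicates and 1 (ISG15) at an adjusted p under 0.001. With UCI-1014 against UCI-1001 it was 1 to 2 without single replicates, 1 in one fit of all 12 libraries and 0 at an adjusted p under 0.001 by edgeR, where 2 had an unadjusted p under 0.05.

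The log2 fold changes that changed sign were all of genes that were not called. Without single replicates, IRF9 ranged from -0.11 to 0.14 and IFIT1 from -0.27 to 0.20 with UCI-1001, and from -0.28 to 0.10 and -0.41 to 0.047 with UCI-1014. Against UCI-1001 the ranges were -0.30 to 0.073 for IRF9, -0.35 to 0.026 for IFIT1, -0.65 to 0.25 for IFIT3, -0.0029 to 0.59 for MX1 and -0.95 to 0.17 for OAS1. In one fit of all 12 libraries IRF9 was at -0.0067 with UCI-1001. With identifiers not summed IRF7 was at -0.10 with p53-WT. The cause was not tested.

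The count of all genes called moved by over 1.5 times in 3 comparisons: with UCI-1001 from 2232 to 1149 by DESeq2, 308 in the fit of all 12 libraries, 952 and 1020 without DMSO replicates 1 and 2 and 1188 without UCI-1001 replicate 2, with UCI-1014 from 6677 to 3421 in the fit of all 12 libraries, and between the compounds from 4406 to 2636 by DESeq2 and 937 in that fit. Of the 79 related genes, the calls with UCI-1014 went from 18 up and 7 down to 6 and 6 in that fit. With UCI-1001 they went from 3 up and 4 down to between 0 and 3 calls by DESeq2, in that fit and without either DMSO replicate or UCI-1001 replicate 2, and between the compounds from 11 and 6 to 5 and 3 by DESeq2.

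Whether same-numbered replicates were paired is not given in the sources used here. Their deviations correlated at -0.176 to 0.130, and not every pair exceeded 0.1. In Saos-2 all same-numbered pairs were positive, at 0.067 to 0.130. With 2 libraries a group, as in TOV-112D, the deviations mirror each other, so this check cannot decide on pairing. With the replicate block the members called were 0 with UCI-1001, 2 with UCI-1014, 2 between the compounds and 5 with p53-WT, and calls over all genes went to 1774, 6307, 3882 and 9814. With crossed numbers for UCI-1014 against UCI-1001, an alternative chosen after seeing the data as was leaving out both replicates 1, 2 members and 4979 genes were called. Depth limits OAS1 and IRF7, with 0 to 15 counts in the lines where they are low, and IFIT2, IFIT3 and MX1 in TOV-112D.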
